A study of Mus musculus with 4 samples.

Results

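The genes described here are the cadherins and catenins of the adherens junction and 3 proteins that work beside them, in bulge hair follicle stem cells (HF-SCs) of mouse back skin. The members were chosen by name, as rows of the deposited comparison table whose gene symbol is Cdh1, Cdh3, Ctnna1, Ctnna2, Ctnnb1, Ctnnd1, Jup, Ajuba, Mllt4 or Pard3 and whose mean normalized count is above 0. Of the 10 listed genes, 9 met the rule, out of 17044 genes with a mean above 0 and 24421 in all. Ctnna2 was listed at 0.

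RNA-seq was performed on 2 control and 2 miR-205-induced libraries of FACS-sorted HF-SCs, with mice labelled as postnatal day 44 and strain C57BL/6. The inducible mice carry a pTRE2-miR-205 transgene, made by injection into FVB mice, and a Krt14-driven reverse tetracycline transactivator, so that doxycycline switches on the microRNA in keratin 14 cells. All mice carried the K14-H2BGFP allele used for sorting, and the induced mice received doxycycline chow for 2 d. The labels call the controls untreated, while the extraction protocol says that both groups were fed doxycycline. The paper states that controls were littermates, that sorted mice were matched by sex, and that RNA-seq covered at least 2 pairs of control and inducible mice. Which libraries form a pair is not given in the sources used here. Neither the genotype of the controls nor the number of mice behind a library is given there. Live cells were sorted as CD34-high and α6-high, with high H2BGFP and no Sca1.

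The study asked how the induction of miR-205 alters the actin cytoskeleton and cell junctions of HF-SCs. That contrast was not computed here, because the values open to analysis are those of 1 column, the authors' mean of the normalized counts over all 4 libraries of both groups. The levels below therefore describe control and induced cells together, and neither a difference between the groups nor its error is given. The spread between replicates can be shown only for genes with a low mean, as set out further on.

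Adherens junctions join neighbouring epithelial cells. Classical cadherins span the membrane and bind cadherins of the next cell, and their cytoplasmic tails hold an armadillo catenin, β-catenin or plakoglobin, together with p120-catenin. β-catenin and plakoglobin bind α-catenin, which links the complex to actin filaments and responds to tension. In hair follicle stem cells β-catenin has a separate role as the effector of WNT signalling.

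The guide sequence of the induced microRNA is shown because its seed defines the matches searched for in the junction transcripts. RefSeq gives the mature strand on GRCm38.p6 chromosome 1, minus strand, from 193507503 to 193507524. The capitals mark the seed, bases 2 to 8, of its 22 bases.
mmu-miR-205-5p: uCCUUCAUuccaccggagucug

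The word that pairs with this seed in a transcript is ATGAAGG. In the longest annotated 3′UTR of each gene, this 7-base word was present in 10.3% of 20007 genes. Among the 10 listed junction genes it was present in 3, Mllt4, Ctnnd1 and Ctnnb1. A match is a run of letters in a reference transcript and does not show that the site is used.

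Mllt4, which encodes afadin, an adaptor between nectins and actin, held 3 of the 5 matches. They lie in the last exon, exon 33 of 33, on NCBIM37 chromosome 17, plus strand, at 14041261 to 14041267, at 14042326 to 14042332 and at 14043079 to 14043085. Ctnnd1, which encodes p120-catenin, held 1 match in exon 17 of 17, on chromosome 2, minus strand, from 84440774 to 84440780. Each is printed on the strand of the transcript with the 7 bases in capitals and its neighbours in lower case, to let the flanks be compared.
Mllt4 at base 247 of the 3′UTR: gactcatagggcagaATGAAGGgctgtaaa
Mllt4 at base 1312 of the 3′UTR: tggccttgagagtttATGAAGGatttgcac
Mllt4 at base 2065 of the 3′UTR: gtcaagattgctggaATGAAGGtatgtttt
Ctnnd1 at base 2269 of the 3′UTR: tcagtcccaactctaATGAAGGaaggttct

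The middle Mllt4 match and the Ctnnd1 match are followed by an A, as is common beside microRNA seed matches. The 3 Mllt4 matches lie in a 3′UTR of 2143 bases, and 17.1% of the 2668 3′UTRs within 20% of that length hold the word at least once. Ctnnd1 has a longer 3′UTR of 2821 bases, and among 2140 of like length 22.2% hold it. Of the 24 Ctnnd1 transcripts with a 3′UTR, 19 carry the match. Of the 6 Mllt4 transcripts with a 3′UTR, 3 carry the word. The Mllt4 match at base 2065 lies in an exon of only 1 annotated transcript.

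The Ctnnb1 match differs in kind. It lies on chromosome 9, plus strand, from 120866774 to 120866780, within a transcript annotated for nonsense-mediated decay, and the same bases are coding in 2 of the 5 transcripts that include them. With protein-coding transcripts alone, a setting chosen after the data were seen, 2 of the 10 genes held the word in the 3′UTR, Mllt4 and Ctnnd1. The share was 9.70% of 19988 genes, with no allowance for length. The Ctnnb1 sequence is shown because its match is of this different kind.
Ctnnb1, a match that is coding in 2 transcripts: tactccactccaggaATGAAGGcgtggcaa

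Ctnna1 held neither the 7-base word nor its shorter 6-base form, which pairs with bases 2 to 7, in its 3′UTR of 881 bases. Of the 2496 3′UTRs of like length, 6.81% hold the 7-base word. The paper reports Ctnna1 among the mRNAs bound by miR-205, found by joining the microRNA to its target in a capture experiment. The search here covered only exact seed words in the 1 annotated Ctnna1 transcript, so it does not test that binding. The other members without a match in the longest 3′UTR were Cdh1, Cdh3, Jup, Ajuba, Pard3 and Ctnna2. For Pard3, 4 of 13 transcripts with a 3′UTR carried the word although the longest did not.

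Coding sequences were searched as well, after the 3′UTRs had been seen. The word occurred in the coding sequence of 5 of the 10 genes, against 19.4% of 22361 genes. That share makes no allowance for length. Among coding sequences within 20% of each gene's length, it was higher for all 10, from 20.1% for Ajuba to 56.9% for Mllt4. The count of 5 was not tested against genes of like length, so no excess of matches is claimed. Ctnna1 held 1 coding match, in exon 18 of 18 on NCBIM37 chromosome 18, plus strand, from 35413406 to 35413412. It starts 141 bases before the end of the coding sequence, and the coding match of Ctnna2 also starts 141 bases before its end. Of coding sequences within 20% of the length of Ctnna1, 33.3% hold the word. Cdh1 and Pard3 held 2 coding matches each and Ctnnb1 held 1.

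The sorted cells carried the RNA of bulge stem cells. All 12 bulge markers lay above the mean of the median gene, 117 normalized counts, and 10 of the 12 lay above the 90th percentile of detected genes. Cd34, which was used in the sort, had a mean normalized count of 14575, and Krt15, a keratin of the bulge, had 119883. The bulge list summed to 3.54% of all normalized counts, and to 1.73% without Krt5 and Krt14, which mark basal keratinocytes in general. Markers of other cells were present too, with sums of 0.0755% for 3 suprabasal genes, 0.0345% for 3 sebaceous genes, 0.102% for 4 fibroblast genes, 0.0251% for 3 myeloid genes and 0.00715% for 3 melanocyte genes. Above the 90th percentile lay 3 of the 4 fibroblast genes, 2 of the 3 suprabasal genes, 1 sebaceous and 1 myeloid gene. Krt10, a suprabasal keratin, had a mean of 7246 and Col1a1, a collagen of fibroblasts, had 5186, which are near the means of Cdh1 and Ctnnd1. The 2 endothelial genes had means of 30.2 and 36.4, and Ly6a, which encodes the Sca1 antigen of the negative gate, had 136. None of these markers was at 0. In bulk RNA, fewer cells of a type and less RNA per cell cannot be told apart.

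All 9 detected members lay above the median gene, and 7 of the 9 lay above the 90th percentile of the mean. Their means ran from 873 normalized counts for Ajuba to 29154 for Jup, and the 10 genes together made up 0.699% of all normalized counts. Since longer transcripts give more reads, levels of different genes are compared below per kilobase of merged exons, in the GENCODE vM1 annotation. The authors' counts rest on an annotation not given in the sources used here, so these lengths are approximate. Each ratio was therefore also taken with the longest transcript, with the coding length and with the shortest transcript that has both UTRs, the last of which is a short annotated form of 795 bases for Ctnnb1 and 520 bases for Pard3.

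**Figure D1:**
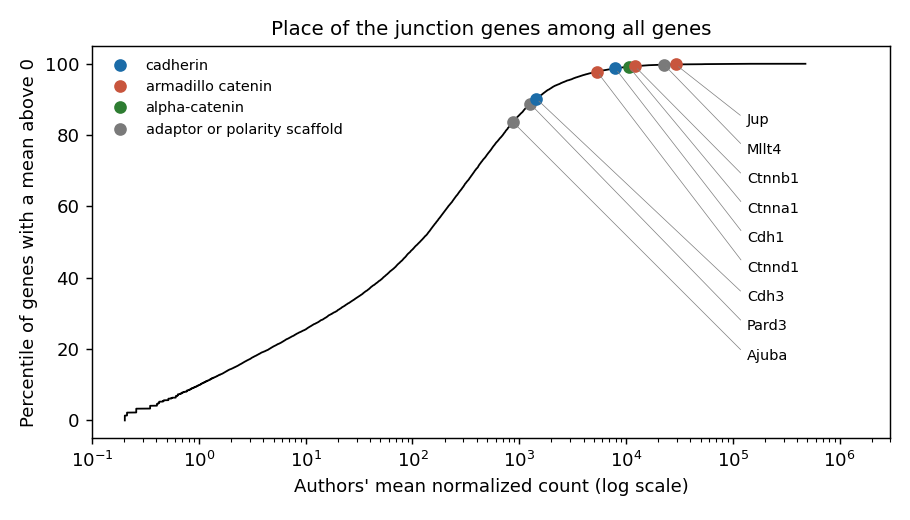
Cumulative percentile (y axis) of the 17044 genes whose mean exceeded 0 against the authors' mean normalized count on a log axis (x axis), with the 9 detected junction genes as coloured points. The points run from Ajuba at percentile 83.7 to Jup at percentile 99.8.

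Armadillo catenins included the most abundant member. Jup encodes plakoglobin, which serves both adherens junctions and desmosomes, and its mean of 29154 lay at percentile 99.8. Per kilobase its level was 4530 normalized counts, the highest of the 9 with 3 of the 4 lengths and the second highest, after Ctnnb1, with the shortest transcript. Ctnnb1, which encodes β-catenin, had a mean of 12071 and a level of 2367 per kilobase. Per kilobase of merged exons Jup was 1.91 times as abundant as Ctnnb1, with a 95% interval for counting error alone of 1.89 to 1.93. The ratio was 2.73 with the longest transcript and 2.53 with the coding length, and it turned to 0.805 with the shortest transcript. Ctnnd1 had a mean of 5349 and a level of 731 per kilobase, and Ctnnb1 was 3.24 times as high, with a range of 2.79 to 14.3 over the 4 lengths. These intervals leave out the spread between libraries, which is not known for these genes.

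The cadherins were unequal. Cdh1 encodes E-cadherin, the main cadherin of epithelia, and had a mean of 7946 and a level of 1737 per kilobase. Cdh3 encodes P-cadherin, which is found in basal and follicle cells, and had a mean of 1443 and a level of 361 per kilobase. The level of Cdh1 was 4.81 times that of Cdh3, with a counting interval of 4.68 to 4.95, and the ratio reached 6.83 with the shortest transcript. Of the 6 other cadherins in the list of junction genes, 5 had means under 100 normalized counts. Cdh2, the N-cadherin gene, had a mean of 15.7, Cdh4 had 34.1, Cdh5, the endothelial cadherin gene, had 30.2, Cdh11 had 78.0 and Cdh15 had 0.404. Cdh1 was 891 times as high as Cdh2 per kilobase of merged exons, and 518 times as high with the coding length. Cdh13, which encodes a cadherin without a cytoplasmic tail, was the exception, with a mean of 1391 and a level of 125 per kilobase. Cdh3 was 2.90 times as high as Cdh13 with merged exons and 0.901 times with the coding length, so the order of these 2 genes is not settled.

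For α-catenins the detected RNA came nearly all from Ctnna1, which encodes the epithelial form αE-catenin. Its mean of 10624 normalized counts lay at percentile 99.1, and its level per kilobase was 2873. Ctnna2, which encodes the form of the nervous system, had no read in any of the 4 libraries. A count of 0 allows up to 3 reads over the 4 libraries, which is a mean of at most 1.05 normalized counts, so Ctnna1 was at least 8992-fold higher per kilobase with each of the 4 lengths, and at least 19063-fold with merged exons. Ctnna3, the αT-catenin gene best known from heart, had a mean of 1.80 from 8 reads in all. Ctnnal1, the gene of the related protein α-catulin, had a mean of 2411, and Ctnna1 was 9.13 times as high per kilobase of merged exons but 1.01 times as high with the shortest transcript.

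The 3 partner genes spanned a wide range. Mllt4 had a mean of 22711, the second highest of the members, and a level of 2221 per kilobase. Ajuba, whose LIM protein binds α-catenin and is recruited to junctions under tension, had a mean of 873 and a level of 268. Pard3, a polarity scaffold of epithelial junctions, had a mean of 1268 and a level of 87.5, at percentile 65.6 of genes per kilobase. Per kilobase Mllt4 was 8.28 times as abundant as Ajuba, with a range of 7.80 to 16.4 over the 4 lengths. It was 25.4 times as abundant as Pard3 with merged exons, 13.5 times with the longest transcript, 13.1 times with the coding length and 1.81 times with the shortest transcript. Pard3 has 28 annotated transcripts with a merged length of 14486 bases, and its longest single transcript has 5815, and it was the lowest of the 9 with 3 of the lengths and sixth in order with the shortest transcript. Ajuba was above Pard3 by 3.06 times with merged exons and stood at 0.110 times Pard3 with the shortest transcript.

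**Figure D2:**
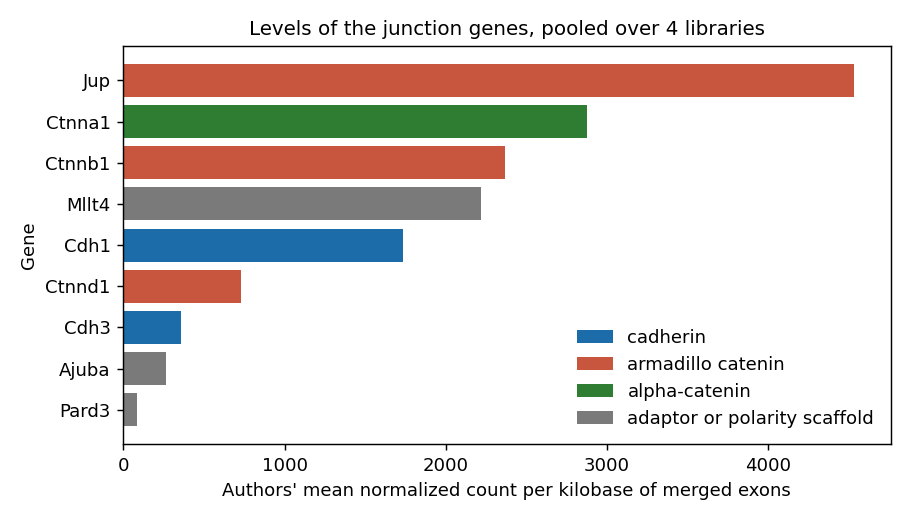
Authors' mean normalized count per kilobase of merged exons (x axis, linear from 0) for the 9 detected junction genes (y axis), pooled over the 4 libraries and coloured by role, with no error bar because the spread between libraries is not known for most of them. With this length Jup leads at 4530, followed by Ctnna1 at 2873, and Pard3 is lowest at 87.5. With each of the other lengths Ctnna1 is below Ctnnb1 and Mllt4 as well as Jup. With the shortest transcript Ctnnb1 leads and Ajuba is lowest.

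Ctnna1 was set beside each other part of the junction. Per kilobase of merged exons it was 0.634 times the level of Jup, and it was above each of the other 7. The ratio was 1.21 to Ctnnb1, 1.29 to Mllt4, 1.65 to Cdh1, 3.93 to Ctnnd1, 7.96 to Cdh3, 10.7 to Ajuba and 32.8 to Pard3. Counting error was small, and the interval for the ratio to Cdh1 was 1.63 to 1.68. The choice of length mattered more. Merging exons adds length to genes with several transcripts but not to Ctnna1, which has 1 annotated transcript. With the longest single transcript of each gene the ratio to Ctnnb1 was 0.862 and that to Mllt4 was 0.978. Ctnna1 was below both genes with the coding length and the shortest transcript as well. Its place above Ctnnb1 and Mllt4 thus held with merged exons only, and is not settled. The places of Ctnna1 below Jup and above Cdh1, Ctnnd1, Cdh3, Ajuba and Pard3 were the same with all 4 lengths used, but the sizes were not. The ratio to Jup fell as low as 0.235, that to Ctnnd1 as low as 2.12, and that to Pard3 to 13.2 with the longest transcript, 12.3 with the coding length and 1.18 with the shortest transcript.

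Summed by role, the 2 armadillo catenins that bind α-catenin, Ctnnb1 and Jup, reached 6897 normalized counts per kilobase, which is 2.40 times Ctnna1. That ratio was 4.33 with the longest transcript, 4.65 with the coding length and 9.54 with the shortest transcript. The 2 cadherins reached 2098, or 0.730 times Ctnna1, with a highest value of 0.990 over the 4 lengths. Vcl, whose product vinculin binds stretched α-catenin, had a mean of 5009, and Ctnna1 was 3.00 times as high per kilobase of merged exons and 1.86 times as high with the shortest transcript. These are amounts of RNA and not of protein.

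**Figure D3:**
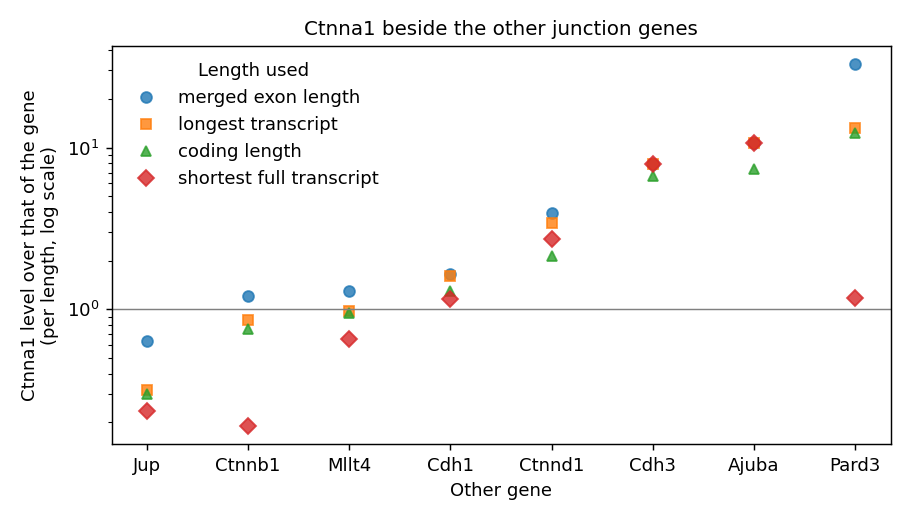
Ratio of the Ctnna1 level to that of each other detected junction gene (y axis, log scale), per length, with 1 symbol for each of the 4 lengths used; the line marks equal levels. The symbols for Ctnnb1 and Mllt4 fall on both sides of the line, those for Jup lie below it and those for the other 5 genes above it.

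Reads in single libraries could be worked out for some genes. The deposited means carry 15 significant digits. A gene with 1 read in 1 library has 1 of 4 recurring values, which gives the relative depth of each library. Depth here means the size factor by which the authors' counts were divided. The depths ran from 0.716 for library A through 0.966 for B and 1.18 for C to 1.24 for D. For each of the 5273 detected genes whose mean was under 20, exactly 1 set of whole reads in the 4 libraries gave the deposited mean. The exact value of 1 read in each library had been fitted on genes under that same mean, so this count is not an independent check. Higher means allow more combinations, and above a mean of 200 each library was taken to lie within 2 times the mean. Under that limit Lor, Dct, Pmel and Tyrp1, which are markers of other cells, had no solution. Of the members, only Ajuba and Pard3 had a single solution, while Cdh3 had 2 and the 6 members with a mean over 1500 were not searched. Nothing in these values says which library is which sample, so libraries A to D belong to no group here.

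Ajuba had 658 reads in library A, 888 in B, 936 in C and 1063 in D. Divided by depth, its normalized counts were 919, 919, 794 and 860. Library C was the lowest, A and B were equal to the nearest whole count, and the highest library was 1.16 times the lowest. The 95% exact Poisson intervals, such as 744 to 847 in C, cover counting error only and leave out variation between samples. Those of A, at 850 to 991, and of B, at 859 to 981, lay above that of C. The interval of D, at 809 to 913, overlapped it.

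Pard3 had 957, 1229, 1425 and 1550 reads in libraries A to D. Its normalized counts were 1336, 1272, 1209 and 1253, and the highest was 1.11 times the lowest. The intervals of A, at 1253 to 1423, and of C, at 1147 to 1273, overlapped. With library values allowed up to 4 times the mean, or with a wider rounding tolerance, Pard3 had 2 solutions, so its split rests on the narrower limits. Ajuba made up 40.7% of the reads of both genes in library A, 41.9% in B, 39.6% in C and 40.7% in D, with exact binomial intervals that all overlapped.

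**Figure D4:**
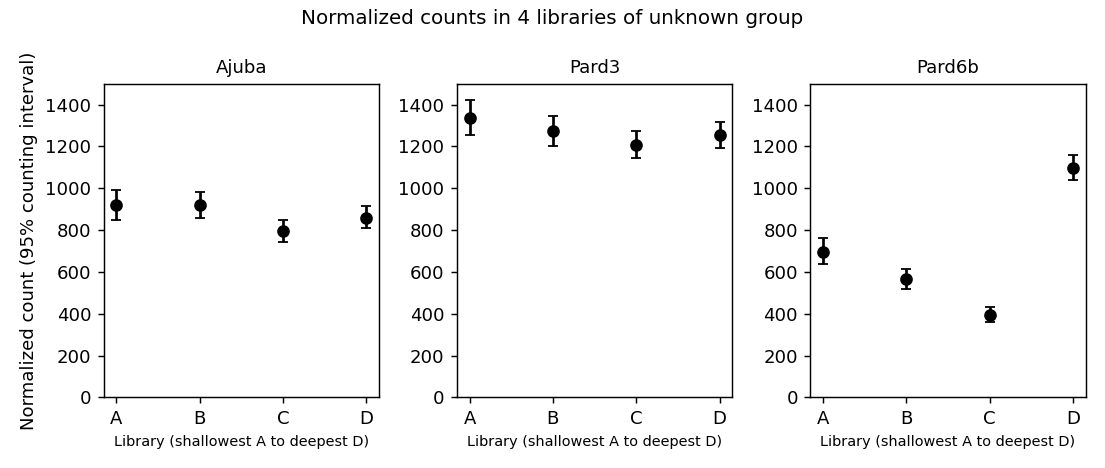
Normalized counts (y axis) in each of 4 libraries named A to D by depth (x axis), which could not be assigned to control or induced, for Ajuba, Pard3 and the polarity gene Pard6b, with bars for the 95% exact Poisson interval of counting error. Ajuba and Pard3 stay within 1.16-fold and 1.11-fold, and Pard6b, picked after its values were seen, ranges from 396 in C to 1098 in D.

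The other genes of the adherens junction were taken from a list of 35. None was at 0, 25 lay above the median gene and 8 lay above the 90th percentile, against 7 of the 10 members. The median mean of the list was 582 normalized counts, against 6647 for the 10 members and 117 for all genes with a mean above 0. The 5 highest were Vcl at 5009, Baiap2 at 4121, Ctnnal1 at 2411, Lima1 at 2406 and Prkci at 2220. Lima1 encodes an actin-binding partner of α-catenin, and Prkci encodes the atypical protein kinase C of the PAR polarity complex.

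Relatives of the partner genes were detected too. Limd1 and Wtip encode LIM proteins of the Ajuba family, and their means were 1778 and 321 normalized counts. Per kilobase Limd1 was 1.37 times as high as Ajuba, and Ajuba was 1.90 times as high as Wtip. Pard3b, the paralog of Pard3, had a mean of 190. Ctnnd2, the δ-catenin gene related to Ctnnd1, had a mean of 102, and Ctnnd1 was 42.2 times as high per kilobase of merged exons and up to 67.3 times with the other lengths.

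Among these relatives, Ctnnd2 ranged from 72.0 normalized counts in library D to 133 in library A, and Pard3b from 168 in A to 227 in D. Pard6b, which encodes a partner of Pard3 and had a mean of 689, had normalized counts of 697 in library A, 565 in B, 396 in C and 1098 in D. This split was the only solution under the wider limits as well. That range of 2.77-fold was wider than those of Ajuba and Pard3, but Pard6b was picked after its values were seen. Among other junction genes, Magi1 spanned 1.34-fold, Pvrl2 1.26-fold and Lin7c 1.15-fold under the narrower limits. Cdh2 and Cdh4, with low means, spanned 4.13-fold and 3.30-fold. Markers of other cells also varied between the libraries. Lyz2, a myeloid gene, ran from 234 in library D to 769 in library C, and Ly6a from 60.0 in A to 179 in B. Cdh5 ran from 5.58 in A, which is 4 reads, to 45.3 in D. The other endothelial gene, Pecam1, was also lowest in A, at 19.5, but highest in B, at 56.9, with 28.3 in D. Ptprc, another myeloid gene, ran from 57.4 in D to 132 in C. Pdgfra, a fibroblast gene, varied less, from 32.2 in C to 48.6 in B. The sebaceous genes Mgst1 and Plin2 spanned 2.08-fold and 2.19-fold under the narrower limits. Their part in the levels of the junction genes was not tested.

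Reads of near copies could blur such values, so the transcripts were compared. At 50 bases, none of the words of Cdh1, Cdh3, Ctnna1, Ctnnb1, Ctnnd1, Jup, Mllt4 or Pard3 occurred in a protein-coding transcript of another gene. Ajuba shared 1.93% of its words and Ctnna2 0.0637%. In the annotation, exons of Ctnnb1 overlap those of Ulk4 on the opposite strand over 240 bases, and exons of Mllt4 overlap those of Tcte2 on the opposite strand over 221 bases. The libraries were made with a directional kit, and whether the counting used strand is not given in the sources used here, so these stretches are uncertain.

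The genes lie as follows on NCBIM37. Cdh3 and Cdh1 are neighbours on chromosome 8, plus strand, at 109034791 to 109080808 and at 109127251 to 109194146, and Pard3 lies on the same chromosome at 129587793 to 130136186. Jup is on chromosome 11, minus strand, at 100230272 to 100259077, and Ctnnb1 on chromosome 9, plus strand, at 120838334 to 120869625. Ctnnd1 is on chromosome 2, minus strand, at 84440228 to 84490922, Ajuba on chromosome 14, minus strand, at 55186309 to 55196253, and Mllt4 on chromosome 17, plus strand, at 13897546 to 14043157. Ctnna2 is on chromosome 6, minus strand, at 76831631 to 77929693. Ctnna1 is on chromosome 18, plus strand, at 35278542 to 35414427.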

How the data were processed

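Per the labels and the methods, the authors mapped paired reads of 150 nt by HISAT2 (2.1.0), handled them in SAMtools (1.3.1), assigned them to genes by HTSeq and used DESeq2 at default settings. The build is named as mm10 in the labels and as NCBI37/mm10 in the methods, and neither the annotation nor the other versions are given in the sources used here. The deposited table holds 1 pooled signal, the authors' mean over the 4 libraries of counts divided by size factors. Its 5 other columns hold the authors' own comparison of induced with control (log2 fold change, standard error, Wald statistic, p and adjusted p) and were not used, so no test between groups was made. Columns of per-sample values numbered 0.

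Depth is known only in part. The deposited means of all genes sum to 1.31e+07 normalized counts, and relative library depths differed 1.73-fold. Reads behind a mean are about 4.10 times the mean at equal normalized counts, which gives counting errors of 0.289% to 1.67% for the 9 members. Intervals and the floor of 3 reads cover counting error only.

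Whole reads per library were searched over all combinations for means up to 200, and within 2 times the mean up to 1500, with a tolerance of 2 times the rounding. The search was also run on simulated libraries with little spread between them, which does not test splits outside these limits. A gene with more than 1 solution got no value. Lengths and 3′UTRs are from GENCODE vM1 on NCBIM37, with no coordinate converted, and 22016 of 24421 gene names matched, through RefSeq synonyms (GRCm38.p6) where needed. All 10 listed genes matched. Named are all members, the 5 highest and the near relatives from a list of other junction genes, and cell type markers. Pard6b was named after its values were seen. The members and lists were chosen with earlier results of these data known. Alternatives were other lengths, other genes to rank against, wider search limits, leaving out libraries, other sites and shorter words. Scripts ran in Python 3.11.15 with scipy 1.17.1, numpy 2.4.6, matplotlib 3.10.9 and pandas 2.3.3.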

Additional observations from a re-analysis of the deposited data

How the results depend on the processing

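No paired analysis was possible because the pooled mean carries no value for a labelled sample. For the same reason the ratios of Ctnna1 could not be computed without a library. Without each library in turn the mean of Ajuba ran from 857 to 899 and that of Pard3 from 1245 to 1287. Ratios of Ctnna1 depended on gene length. With the longest transcript they were 0.862 to Ctnnb1 and 0.978 to Mllt4, which turns the direction, and 1.60 to Cdh1, 0.316 to Jup, 3.42 to Ctnnd1 and 13.2 to Pard3. With the coding length, added after the files were seen, they were 0.759 to Ctnnb1 and 0.943 to Mllt4, again turned, and 1.30 to Cdh1, 6.68 to Cdh3, 0.300 to Jup, 2.12 to Ctnnd1, 7.35 to Ajuba and 12.3 to Pard3. With the shortest transcript that has both UTRs, for some genes a short annotated form and also added, they were 0.189 to Ctnnb1 and 0.652 to Mllt4, turned, and 1.16 to Cdh1, 0.235 to Jup, 2.71 to Ctnnd1 and 1.18 to Pard3. Between other genes the direction turned for Jup to Ctnnb1 (0.805) and Ajuba to Pard3 (0.110) with the shortest transcript, and for Cdh3 to Cdh13 with the coding length (0.901) and the shortest transcript (0.988). The remaining 4 of 24 Ctnna1 ratios stayed within counting error. They are those to Cdh3 and Ajuba with the longest and the shortest transcript. Ajuba, like Ctnna1, has 1 annotated transcript, and the Cdh3 lengths were 3995, 3979 and 3973 bases. These 4 ratios therefore could hardly move and do not show that length has no effect. Members above the 90th percentile numbered 7, and 6 with a mean over 50, with a mean over 200 or per kilobase. Members with reads per library found fell from 2 to 1 with wider bounds, up to 4 times the mean, and to 1 with a tolerance of 10 times the rounding. Members with the 7-base match numbered 3, where 10.3% of all genes with a 3′UTR hold it. For 6 bases they also numbered 3, where 32.3% of all genes hold the word. They numbered 4 over any transcript, for which no share of all genes was computed, and 2 in protein-coding transcripts, where the share was 9.70%. Members sharing words with another gene numbered 2 at 50 bases and 6 at 31 bases, because shorter words match more often. Alignment of proteins and the RefSeq coding length were not run, since they need protein sequences not used here. Depth limits the split into libraries to genes with low means.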
